A study of Rattus norvegicus with 11 samples.

Results

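Transcripts of 10 insulin and insulin-like growth factor (IGF) signalling genes were examined in the renal cortex of rats with and without streptozotocin diabetes, after Roux-en-Y gastric bypass or a sham operation. The genes were the ligand Igf1, the receptors Insr and Igf1r, the receptor substrates Irs1 and Irs2, and the IGF binding proteins Igfbp1, Igfbp2, Igfbp3, Igfbp4 and Igfbp5. Every non-control array probe annotated to one of them, by its RefSeq accession or gene name, was taken. This gave 14 of 30367 probes, for 10 of the 15168 genes assigned to probes in that way. Igf1, Insr, Irs1 and Igfbp2 had 2 probes each. All 14 probes passed the filter on dim signals and lay well above background on all 11 arrays.

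There were 4 groups of Sprague Dawley (SD) rats, with 11 arrays of renal cortex RNA, each listed as a sample. DM+RYGB rats had diabetes and bypass surgery (2 arrays), DM+Sham rats diabetes and the sham operation (3 arrays), Control+RYGB rats bypass surgery without diabetes (3 arrays) and Control+Sham rats neither diabetes nor bypass (3 arrays). Streptozotocin (STZ) destroys the insulin-producing beta cells of the pancreas and gives a model of type 1 diabetes, surgery followed 4 weeks later, and tissue was taken after another 4 weeks. All rats had been operated on. In RYGB the surgeon joins a small gastric pouch to the jejunum, so that food passes by most of the stomach and the duodenum. The labels give neither age, sex nor blood glucose, and nothing in them ties each replicate to an animal of its own, so p-values may measure technical spread.

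Insulin and IGF1 bind related receptor tyrosine kinases, which phosphorylate the IRS adaptors and so switch on the PI3K and AKT kinases and hold FOXO transcription factors out of the nucleus. IGF1 in blood comes mostly from the liver, where growth hormone and insulin sustain it, and is carried by binding proteins that set how much of it reaches the receptor. In the kidney, insulin acts on tubule cells, podocytes and endothelium, and the proximal tubule takes up filtered insulin and lowers its glucose output in response to insulin. In liver, insulin is known to lower Igfbp1, Irs2, Pck1 and G6pc1 transcription through FOXO1, and lack of insulin to raise it.

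Values are log2 of the processed spot signal minus the 75th percentile of that array, so 0 is the level that 75% of probes lie below. The levels of different probes cannot be set against each other, since probes differ in how well they bind. A probe is said to have risen or fallen where limma gave an adjusted p under 0.05, in the same direction, under each of 3 ways of scaling the arrays (75th percentile, median, quantiles), and the printed changes, standard errors (SE) and adjusted p are from the first of these. Averaged over repeated spots, DM+Sham 2 and 3 differed by less than single spots within an array do, as did Control+RYGB 2 and 3. Over the 23142 probes well above background on all arrays, the 2 pairs differed by 0.0259 and 0.0769. The second value is above the 0.0523 and 0.0514 between spots of Control+RYGB 2 and 3. Each of these pairs was counted as 1 sample, which left 2 DM+RYGB, 2 DM+Sham, 2 Control+RYGB and 3 Control+Sham samples. Group values below are means ± SD over these samples.

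Some arrays stood apart from the rest of their group. Between 77.69% and 93.5% of the probes lay well above background on an array, and the 75th percentile of the signal was 864 to 2487 units. DM+RYGB 2 held heart and skeletal muscle transcripts, with a summed level of 8.95 for 9 such markers beside 0.49 in DM+RYGB 1 and -0.49 to 0.36 in all other arrays, so the called results that rest on it are also given without it. The summed level of 5 urothelium markers was -0.71 to -0.37 in DM+RYGB, -1.37 to -1.28 in DM+Sham, -1.77 to -1.44 in Control+RYGB and 1.77 to 1.88 in Control+Sham. The 6 proximal tubule markers, the defining cells of renal cortex, were well above background on all arrays, at 6.44 to 7.26 in DM+RYGB, 7.37 to 7.5 in DM+Sham, 8.13 to 8.44 in Control+RYGB and 7.14 to 7.56 in Control+Sham. Less RNA from fewer cells of a type and less RNA per cell cannot be told apart in whole tissue. Arrays were scanned on 5 days, none of which held both Control+RYGB and Control+Sham, and all Control+RYGB arrays lay at a slide position that no other array had, so position and group cannot be told apart there.

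The promoters of the 4 members with the smallest p for diabetes in sham rats are shown because FOXO factors, which insulin restrains, bind motifs of this kind in liver. Each window is from RefSeq's GRCr8 assembly and runs from 250 bases before to 50 bases after the transcript start, written along the transcript. Igfbp4 is at chr10:84491221-84491520 on the plus strand, Igfbp1 at chr14:86261027-86261326 on the plus strand, Insr at chr12:6128754-6129053 on the minus strand and Igfbp3 at chr14:86277895-86278194 on the minus strand. Capitals mark matches to CAAAACA, the core of the insulin response element, or to GTAAACA, a FOXO consensus, on either strand.
Igfbp4: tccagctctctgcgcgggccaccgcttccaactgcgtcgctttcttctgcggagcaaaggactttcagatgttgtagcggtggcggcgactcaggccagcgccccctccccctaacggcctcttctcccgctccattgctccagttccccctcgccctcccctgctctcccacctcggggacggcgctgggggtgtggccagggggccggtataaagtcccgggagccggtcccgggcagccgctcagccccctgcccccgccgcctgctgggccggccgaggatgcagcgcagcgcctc
Igfbp1: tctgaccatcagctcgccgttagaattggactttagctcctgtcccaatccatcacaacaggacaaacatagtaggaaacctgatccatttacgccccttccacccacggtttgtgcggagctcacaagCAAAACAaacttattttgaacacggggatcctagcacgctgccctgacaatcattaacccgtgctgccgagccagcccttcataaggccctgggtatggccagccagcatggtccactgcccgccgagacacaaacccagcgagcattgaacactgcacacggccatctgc
Insr: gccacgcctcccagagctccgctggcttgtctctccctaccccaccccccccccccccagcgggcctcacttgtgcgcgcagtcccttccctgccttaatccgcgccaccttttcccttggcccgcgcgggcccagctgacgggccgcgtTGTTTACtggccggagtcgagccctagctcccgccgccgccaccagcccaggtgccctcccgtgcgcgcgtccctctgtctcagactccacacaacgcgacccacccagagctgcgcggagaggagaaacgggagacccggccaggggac
Igfbp3: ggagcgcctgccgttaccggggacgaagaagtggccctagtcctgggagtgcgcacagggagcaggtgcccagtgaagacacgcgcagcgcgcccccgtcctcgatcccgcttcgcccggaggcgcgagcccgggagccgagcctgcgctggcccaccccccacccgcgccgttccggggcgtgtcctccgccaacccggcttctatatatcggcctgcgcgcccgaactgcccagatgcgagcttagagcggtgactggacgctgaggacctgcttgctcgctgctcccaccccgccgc
Igfbp1 holds CAAAACA at positions -121 to -115 from the start, and Insr holds TGTTTAC, the reverse complement of GTAAACA, at -100 to -94. No match lies in the windows of Igfbp4 and Igfbp3. Of the 9 members with a listed promoter, 3 hold a match, the other being Igf1 with CAAAACA at -67 to -61, while 9.64% of all 33469 promoter windows hold either motif (6.28% CAAAACA, 3.78% GTAAACA). Such a match is a description of the letters, and binding was not measured.

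Diabetes in sham-operated rats went with lower Igfbp4 and Igfbp1, and with higher Insr, Igf1r and Igfbp3. This comparison bears on the lack of insulin without bypass surgery, while diabetes in RYGB rats bears on it after bypass. Of the 14 member probes 4 rose and 2 fell, while of all 28489 probes tested 6.29% rose and 6.74% fell. The median change of the 14 probes was 0.12, and that of all probes 0.04.

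Igfbp4, a binding protein that keeps IGF1 from its receptor until the protease PAPP-A cleaves it, had the largest change of any member in this comparison. Its level was 1.60 and 1.25 in the DM+RYGB arrays, 0.95, 1.17 and 1.18 in DM+Sham, 3.36, 3.53 and 3.59 in Control+RYGB, and 3.31, 3.32 and 3.37 in Control+Sham. The arrays of diabetic rats all lay far below those of control rats, with no overlap. Igfbp4 averaged 1.06 ± 0.16 in DM+Sham (n = 2) and 3.34 ± 0.03 in Control+Sham (n = 3), and fell by 2.27 (SE 0.14, adjusted p 0.00028, limma), which is 4.84-fold lower. Arrays scanned on the same day gave -2.37 and -2.21, and the call was kept without each sample in turn. Igfbp4 lies at 84491471 to 84503487 on chromosome 10 of GRCr8, the assembly of all gene positions given here.

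Igfbp1, the binding protein whose liver transcription insulin represses, was also lower with diabetes in the renal cortex. Its level was 1.41 and 1.00 in DM+RYGB, 1.86, 2.04 and 2.05 in DM+Sham, 3.64, 3.78 and 3.73 in Control+RYGB, and 3.13, 3.04 and 3.01 in Control+Sham. The 4 groups did not overlap, with DM+RYGB lowest and Control+RYGB highest. Igfbp1 averaged 1.95 ± 0.13 in DM+Sham and 3.06 ± 0.06 in Control+Sham, a fall of 2.16-fold (log2 change -1.11, SE 0.14, adjusted p 0.0039). Same-day arrays gave -1.18 and -0.98, and the call was kept without each sample in turn. It was lost with normexp, an alternative background correction. The gene lies on chromosome 14 at 86261277 to 86266344, with 3863 bases between it and Igfbp3.

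Igfbp3 carries most IGF1 in blood, and it lies on chromosome 14 at 86270208 to 86277944. Its level was 4.97 and 4.79 in DM+RYGB, 4.76, 4.93 and 4.92 in DM+Sham, 5.21, 5.21 and 5.29 in Control+RYGB, and 4.26, 4.21 and 4.00 in Control+Sham. Control+Sham arrays lay below all others. Igfbp3 averaged 4.84 ± 0.12 in DM+Sham and 4.16 ± 0.14 in Control+Sham and rose by 0.68 (SE 0.12, adjusted p 0.013), whereas its neighbour Igfbp1 fell. The call was lost in 7 of 9 fits that left out 1 sample, namely any Control+Sham, DM+Sham or Control+RYGB sample (changes of 0.60 to 0.77), with scan day as a block (0.73, not passing under all scalings) and with only the groups compared in the fit (0.68). Normexp lost it too. Of 6 endothelial markers 2 rose too (summed level 5.03 to 5.17 in DM+Sham and 4.56 to 4.63 in Control+Sham), as did 1 of 5 collecting duct and 1 of 5 adrenal markers. Of 6 liver markers 1 rose and 1 fell, and of 5 macrophage markers 1 fell. Their part in the Igfbp3 result was not tested.

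Igfbp2 and Igfbp5 were not called with diabetes in sham rats. The 2 Igfbp2 probes gave 0.05 (adjusted p 0.90) and 0.00 (adjusted p 0.99), with overlapping arrays. Both lie on chromosome 9, Igfbp2 at 81864811 to 81892179 and Igfbp5 at 81901605 to 81914187, with 9425 bases between them. Igfbp5, which binds to extracellular matrix, was at 0.19 (adjusted p 0.62).

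**Figure D1:**
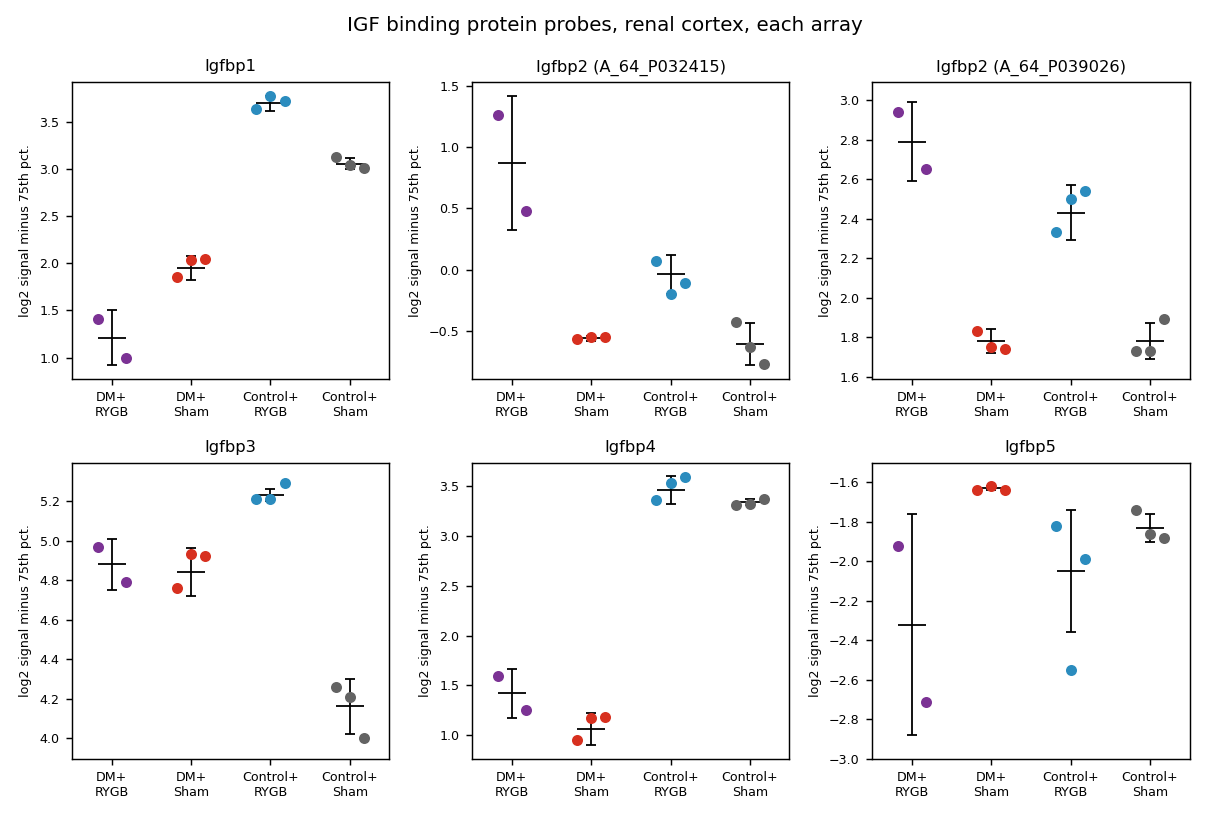
Level of each IGF binding protein probe (log2 signal minus the array's 75th percentile) in the 4 groups, 1 point per array, with the mean and SD over samples in black (n = 2, 2, 2 and 3 from left to right). Igfbp4 and Igfbp1 lie lower in both diabetic groups, the Igfbp2 probes lie highest in DM+RYGB, and Igfbp3 is lowest in Control+Sham.

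Both receptor genes were higher in diabetic sham rats. Insr encodes the insulin receptor and lies on chromosome 12 at 5991135 to 6129275. On the probe A_64_P085396 it was at -1.52 and -1.76 in DM+RYGB, -1.38, -1.35 and -1.34 in DM+Sham, -1.91, -1.86 and -1.98 in Control+RYGB, and -2.09, -2.26 and -2.28 in Control+Sham. The groups did not overlap and DM+Sham was highest. On the probe A_64_P118402 it was at -3.01 and -2.76 in DM+RYGB, -2.05, -1.96 and -1.98 in DM+Sham, -2.57, -2.45 and -2.47 in Control+RYGB, and -3.05, -3.17 and -2.9 in Control+Sham. Here too DM+Sham was highest, but DM+RYGB overlapped with Control+Sham.

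Insr rose by 0.85 (SE 0.12, adjusted p 0.0046) and by 1.03 (SE 0.13, adjusted p 0.0033) on these probes, 1.80-fold and 2.04-fold higher. Same-day arrays gave 0.88 and 0.93 on the first and 1.12 and 0.94 on the second. The call of A_64_P085396 was lost without Control+Sham 2 (0.82), DM+Sham 1 (0.87) or DM+Sham 2 and 3 (0.83), and that of A_64_P118402 without DM+Sham 2 and 3 (0.99). Both calls were also lost with normexp background correction.

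Igf1r encodes the IGF1 receptor, which also binds insulin weakly, and lies on chromosome 1 at 130959787 to 131248664. Its probe was read from 8 to 10 spots per array. Its level was -2.41 and -2.62 in DM+RYGB, -2.02, -1.87 and -1.89 in DM+Sham, -2.40, -2.33 and -2.27 in Control+RYGB, and -2.57, -2.66 and -2.40 in Control+Sham. DM+Sham arrays lay above all others. Igf1r averaged -1.95 ± 0.10 in DM+Sham and -2.54 ± 0.13 in Control+Sham and rose by 0.59 (SE 0.13, adjusted p 0.021), with same-day values of 0.63 and 0.53. The call was lost in 7 of 9 fits without 1 sample (any Control+Sham, DM+Sham or Control+RYGB sample, 0.52 to 0.66). It was also lost with scan day as a block (0.58, adjusted p 0.055) and with only the groups compared. Both normexp background correction and subtraction of the local background with an offset added lost it too.

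Igf1, the ligand, which lies on chromosome 7 at 24169608 to 24249446, was not called in any of the 5 comparisons. The probe A_44_P366723 was at 1.55 and 2.12 in DM+RYGB, 1.92, 2.13 and 2.13 in DM+Sham, 2.03, 2.04 and 2.10 in Control+RYGB, and 2.50, 2.77 and 2.33 in Control+Sham. Control+Sham arrays were the highest, without overlap, but the change in diabetic sham rats was -0.51 (SE 0.20, adjusted p 0.13). The probe A_64_P052740 gave -0.22 (SE 0.13, adjusted p 0.26). The 2 Igf1 probes correlated at 0.61 over the 9 samples.

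The adaptors Irs1 and Irs2, which link both receptors to PI3K, were not called with diabetes in sham rats. Irs1 lies on chromosome 9 at 91001137 to 91053959 and Irs2 on chromosome 16 at 85190310 to 85214543. Irs2, a gene that insulin represses in liver, was at 0.45, 0.31 and 0.31 in DM+Sham and 0.39, 0.38 and 0.42 in Control+Sham, a change of -0.02 (SE 0.09, adjusted p 0.92) with overlapping arrays. Irs1 gave 0.41 (adjusted p 0.11) on the probe A_44_P431109 and 0.45 (adjusted p 0.099) on A_64_P149129.

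**Figure D2:**
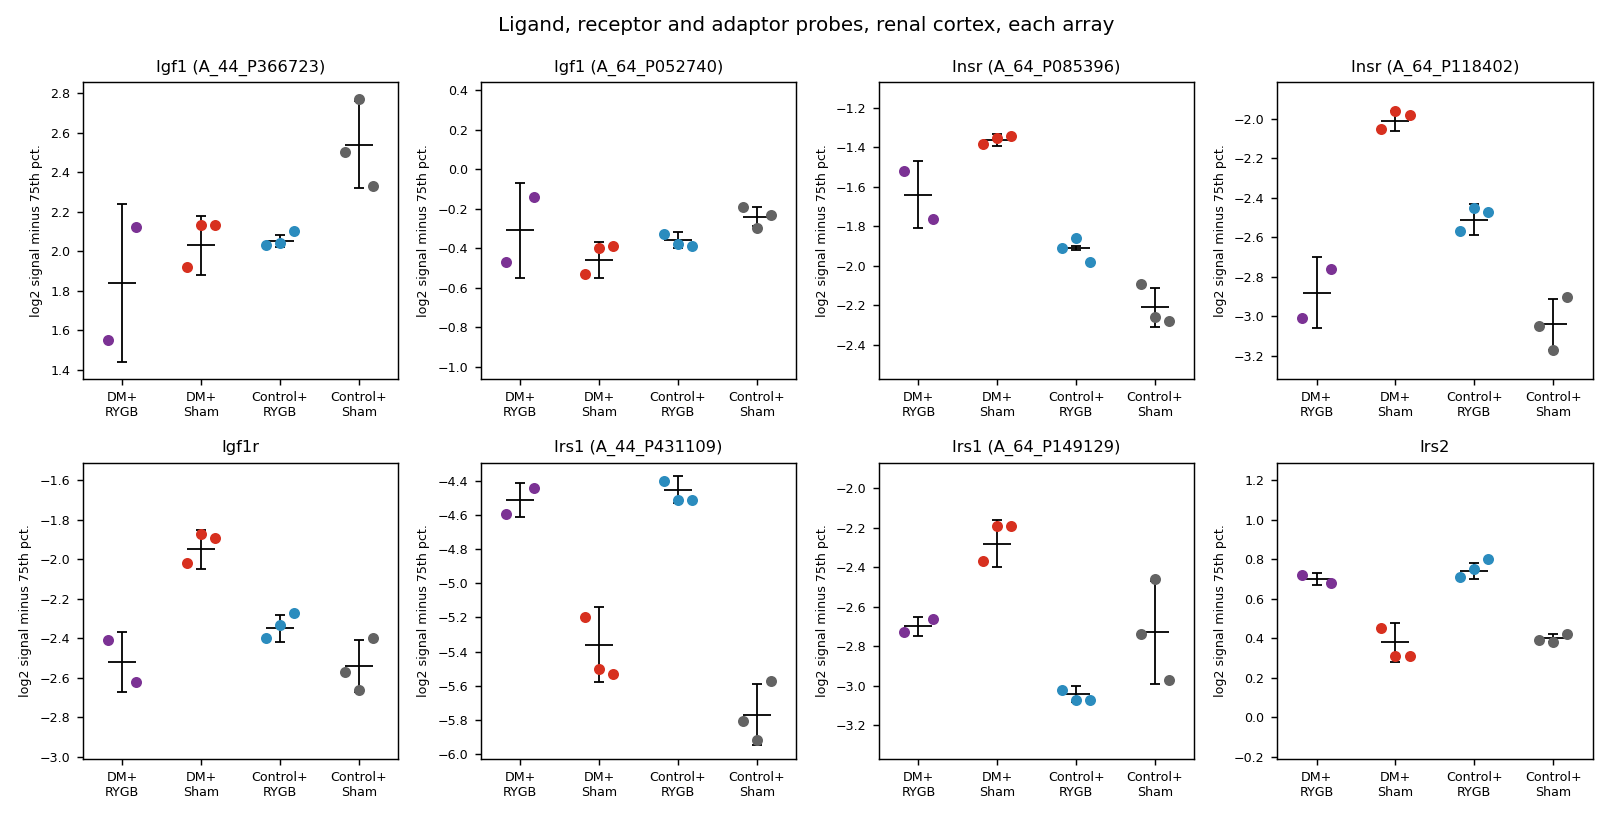
Level of each ligand, receptor and adaptor probe (log2 signal minus the array's 75th percentile) in the 4 groups, 1 point per array, with the mean and SD over samples in black (n = 2, 2, 2 and 3 from left to right). Both Insr probes and Igf1r are highest in DM+Sham, and the 2 Irs1 probes order the groups differently.

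The urothelium markers moved with this comparison, as 4 of 5 fell in DM+Sham against Control+Sham, and so did 3 of 6 pancreas markers (summed level -3.29 to -2.92 in DM+Sham and -1.54 to -0.17 in Control+Sham). Of 8 mesangium, fibroblast and smooth muscle markers 2 fell. Their part in the results of the members was not tested. None of the 6 proximal tubule markers was called.

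RYGB in diabetic rats, set against the sham operation in diabetic rats, went with higher Igfbp2 and with lower Igfbp1, Insr and Igf1r. Of the 14 probes 2 rose and 3 fell, while 10.2% of all probes rose and 15.7% fell. The median change of the members was -0.08 and that of all probes 0.33. The balance of all calls depended on the scaling, as 64.2% were higher with the 75th percentile, 37.2% with the median and 37.6% with quantiles, and the median change of all probes was 0.33, -0.05 and -0.07.

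Igfbp2, a binding protein abundant in fetal life, which insulin lowers in rat liver, was highest in DM+RYGB on both probes. On A_64_P039026 it was at 2.94 and 2.65 in DM+RYGB, 1.83, 1.75 and 1.74 in DM+Sham, 2.33, 2.50 and 2.54 in Control+RYGB, and 1.73, 1.73 and 1.89 in Control+Sham. Both bypass groups lay above both sham groups. On A_64_P032415 it was at 1.26 and 0.48 in DM+RYGB, -0.57, -0.55 and -0.55 in DM+Sham, 0.07, -0.20 and -0.11 in Control+RYGB, and -0.43, -0.63 and -0.77 in Control+Sham. The order was the same, with a wide gap between the DM+RYGB arrays, and the probes correlated at 0.92 over the 9 samples.

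Igfbp2 rose by 1.01 (SE 0.14, adjusted p 0.0024) on A_64_P039026 and by 1.43 (SE 0.26, adjusted p 0.0053) on A_64_P032415, with values of 1.2 and 1.81 within the scan day that held both groups. Without DM+RYGB 2, the array with muscle transcripts, Igfbp2 was 1.15 and 1.82 higher and stayed called on both probes. On A_64_P032415 the call was lost without DM+RYGB 1 (1.04), DM+Sham 1 (1.42) or DM+Sham 2 and 3 (1.44). On A_64_P039026 it was lost with scan day as a block (1.06) but held without each sample in turn. On both probes the call was also lost with normexp and with only the groups compared in the fit. Of 5 podocyte markers 2 rose too (summed level 5.18 to 5.63 in DM+RYGB and 4.36 to 4.40 in DM+Sham). So did 2 of 4 distal convoluted tubule markers (4.39 to 5.02 and 3.76 to 3.85), 1 of 5 of collecting duct and 1 of 6 of pancreas. Of 8 mesangium, fibroblast and smooth muscle markers 1 rose and 3 fell, and of 6 liver markers 1 rose and 1 fell. Of 6 proximal tubule markers 3 fell, and of 4 adipocyte markers 1 fell. The part of all these markers in the result was not tested.

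Igfbp1 was lower still after RYGB in diabetic rats. It averaged 1.21 ± 0.29 in DM+RYGB and 1.95 ± 0.13 in DM+Sham and fell by 0.75 (SE 0.16, adjusted p 0.0096), with a same-day value of -0.64. Without DM+RYGB 2 the change was -0.54 and was still called. The call was lost without DM+Sham 2 and 3 (-0.66) and with scan day as a block (-0.79, adjusted p 0.053). It was also lost with array weights and with only the groups compared in the fit.

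Igf1r averaged -2.52 ± 0.15 in DM+RYGB and -1.95 ± 0.10 in DM+Sham and fell by 0.57 (SE 0.14, adjusted p 0.015). Its same-day value was -0.53, and it was -0.46 and called without DM+RYGB 2, but the call was lost without DM+Sham 2 and 3 (-0.50, adjusted p 0.087). The Igf1r call was also lost with the local background subtracted and an offset added, with array weights and with only the groups compared. The DM+RYGB arrays overlapped with Control+Sham, at -2.54 ± 0.13.

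Insr fell on A_64_P118402 by 0.87 (SE 0.14, adjusted p 0.0036), with -2.88 ± 0.18 in DM+RYGB and -2.01 ± 0.05 in DM+Sham. The call held without each sample in turn, with -1.0 without DM+RYGB 2, and the same-day value was -1.03. On the probe A_64_P085396 Insr was at -0.28 (SE 0.13, adjusted p 0.10) and not called, though the arrays did not overlap. With normexp background correction, whose fit failed on DM+RYGB 1, Insr on A_64_P118402 was at 0.06 and Igf1r at 0.15 in this comparison, so neither fall was seen there.

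The other members were not called after RYGB in diabetic rats. Igfbp4 was at 0.36 (adjusted p 0.094) with the 75th percentile and at -0.01 with the median, and Igfbp3 at 0.04 (adjusted p 0.83) and -0.34. Irs1 on A_44_P431109 was at 0.84 (adjusted p 0.0078) but at -0.02 with quantile scaling, and on A_64_P149129 at -0.42 (adjusted p 0.086). Irs2 was at 0.32 (adjusted p 0.038) and at -0.05 with median scaling, while Igfbp5 was at -0.68 (adjusted p 0.072), with -1.92 and -2.71 in DM+RYGB and -1.64, -1.62 and -1.64 in DM+Sham. Igfbp5 was at -0.28 (adjusted p 0.26) without DM+RYGB 2, and called at -1.08 (adjusted p 0.0089) without DM+RYGB 1. Of 6 proximal tubule markers 3 fell in this comparison, and their part in these results was not tested.

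RYGB in control rats, set against the sham operation in control rats, went with higher Igfbp3 and, on 1 of their probes each, higher Irs1 and Igfbp2. Of the 14 probes 3 rose and none fell in limma's test, while 6.74% of all probes rose and 8.29% fell. At an unadjusted p under 0.05, 8 of the 14 passed in either direction, as did 11740 of all 28489 probes. The median change was 0.32 for the members and 0.15 for all probes.

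Igfbp3 averaged 5.23 ± 0.03 in Control+RYGB and 4.16 ± 0.14 in Control+Sham and rose by 1.07 (SE 0.12, adjusted p 0.0039), 2.10-fold. The call was lost without Control+Sham 1 (1.12), Control+Sham 2 (1.1), Control+RYGB 1 (1.09) or Control+RYGB 2 and 3 (1.05). Igfbp2 rose by 0.65 (SE 0.13, adjusted p 0.019) on A_64_P039026, with 2.43 ± 0.14 in Control+RYGB and 1.78 ± 0.09 in Control+Sham. That call was lost without Control+Sham 1 or 2, either DM+Sham sample or either Control+RYGB sample (0.55 to 0.74). The other Igfbp2 probe was at 0.57 (adjusted p 0.11).

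Irs1 rose on the probe A_44_P431109 only, at -4.59 and -4.44 in DM+RYGB, -5.20, -5.50 and -5.53 in DM+Sham, -4.40, -4.51 and -4.51 in Control+RYGB, and -5.81, -5.92 and -5.57 in Control+Sham. Both bypass groups lay above both sham groups. The change was 1.32 (SE 0.15, adjusted p 0.0039), lost without Control+RYGB 1 (1.26, adjusted p 0.045). This probe was dim, with 14.2 to 104 signal units, and with the local background subtracted and an offset of 50 its change was 0.33 (adjusted p 0.48). The other Irs1 probe, A_64_P149129, was at -2.73 and -2.66 in DM+RYGB, -2.37, -2.19 and -2.19 in DM+Sham, -3.02, -3.07 and -3.07 in Control+RYGB, and -2.74, -2.46 and -2.97 in Control+Sham. It gave -0.32 (adjusted p 0.18), and the 2 probes correlated at -0.47 over the 9 samples, so the direction of Irs1 was not settled.

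Igfbp1 was at 0.64 in Control+RYGB against Control+Sham (SE 0.14, adjusted p 0.025), but at 0.46 (adjusted p 0.075) with median scaling, and was not called. Irs2 was at 0.71, 0.75 and 0.80 in Control+RYGB and 0.39, 0.38 and 0.42 in Control+Sham. Its change of 0.35 (SE 0.09, adjusted p 0.039) did not pass with median scaling (0.17, adjusted p 0.24). Insr was at 0.29 (adjusted p 0.10) and 0.53 (adjusted p 0.031) on its probes and not called under all scalings. Igfbp4, so low in diabetes, was at 0.13 (adjusted p 0.54), and at -0.05 with median scaling, with overlapping arrays. With scan day as a block none of the 14 probes passed in limma, and 132 of all 28489 did. At an unadjusted p under 0.05, 3 of the 14 and 5908 of all probes passed there. Of 5 urothelium markers 4 fell here and of 6 liver markers 2 rose (summed level 5.46 to 5.81 in Control+RYGB and 4.22 to 4.64 in Control+Sham), and their part in these results was not tested.

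Diabetes in RYGB rats, DM+RYGB set against Control+RYGB, went with lower Igfbp1 and Igfbp4. These 2 of 14 probes fell and none rose in limma's test, while 7.57% of all probes rose and 10.9% fell. At an unadjusted p under 0.05 in limma, 6 of the 14 and 11955 of all 28489 probes passed in either direction. The median change was -0.12 for the members and 0.19 for all probes.

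Igfbp1 averaged 1.21 ± 0.29 in DM+RYGB and 3.70 ± 0.08 in Control+RYGB and fell by 2.49 (SE 0.16, adjusted p 0.0002), 5.64-fold. Igfbp4 averaged 1.42 ± 0.25 in DM+RYGB and 3.46 ± 0.14 in Control+RYGB and fell by 2.04 (SE 0.16, adjusted p 0.00035), 4.11-fold. Same-day arrays gave -2.23, -2.78 and -2.73 for Igfbp1 and -1.77, -2.29 and -2.34 for Igfbp4. Without DM+RYGB 2 the changes were -2.29 for Igfbp1 and -1.87 for Igfbp4, and both calls held in all 24 alternative settings. Of 6 proximal tubule markers 5 fell in this comparison, and of 6 liver markers 3 fell (summed level 4.15 to 4.35 in DM+RYGB and 5.46 to 5.81 in Control+RYGB). Of 4 distal convoluted tubule markers 3 rose (4.39 to 5.02 in DM+RYGB and 3.43 to 3.5 in Control+RYGB), as did 3 of 5 collecting duct markers (6.85 to 7.36 in DM+RYGB and 6.43 to 6.47 in Control+RYGB) and 3 of 5 podocyte markers (5.18 to 5.63 in DM+RYGB and 4.25 to 4.31 in Control+RYGB), while of 8 mesangium, fibroblast and smooth muscle markers 1 rose and 3 fell. Their part in these results was not tested.

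Insr, which was higher with diabetes in sham rats, was at 0.27 (adjusted p 0.15, and -0.01 with median scaling) and -0.37 (adjusted p 0.089) with diabetes in RYGB rats. Without DM+RYGB 2 the second of these, on A_64_P118402, was called at -0.50 (adjusted p 0.038), and Igfbp2 on A_64_P032415 was called at 1.30 (adjusted p 0.0035) beside 0.91 (adjusted p 0.036, not called) with all samples. Igf1r was at -0.17 (adjusted p 0.39) and Igfbp3 at -0.35 (adjusted p 0.098).

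**Figure D3:**
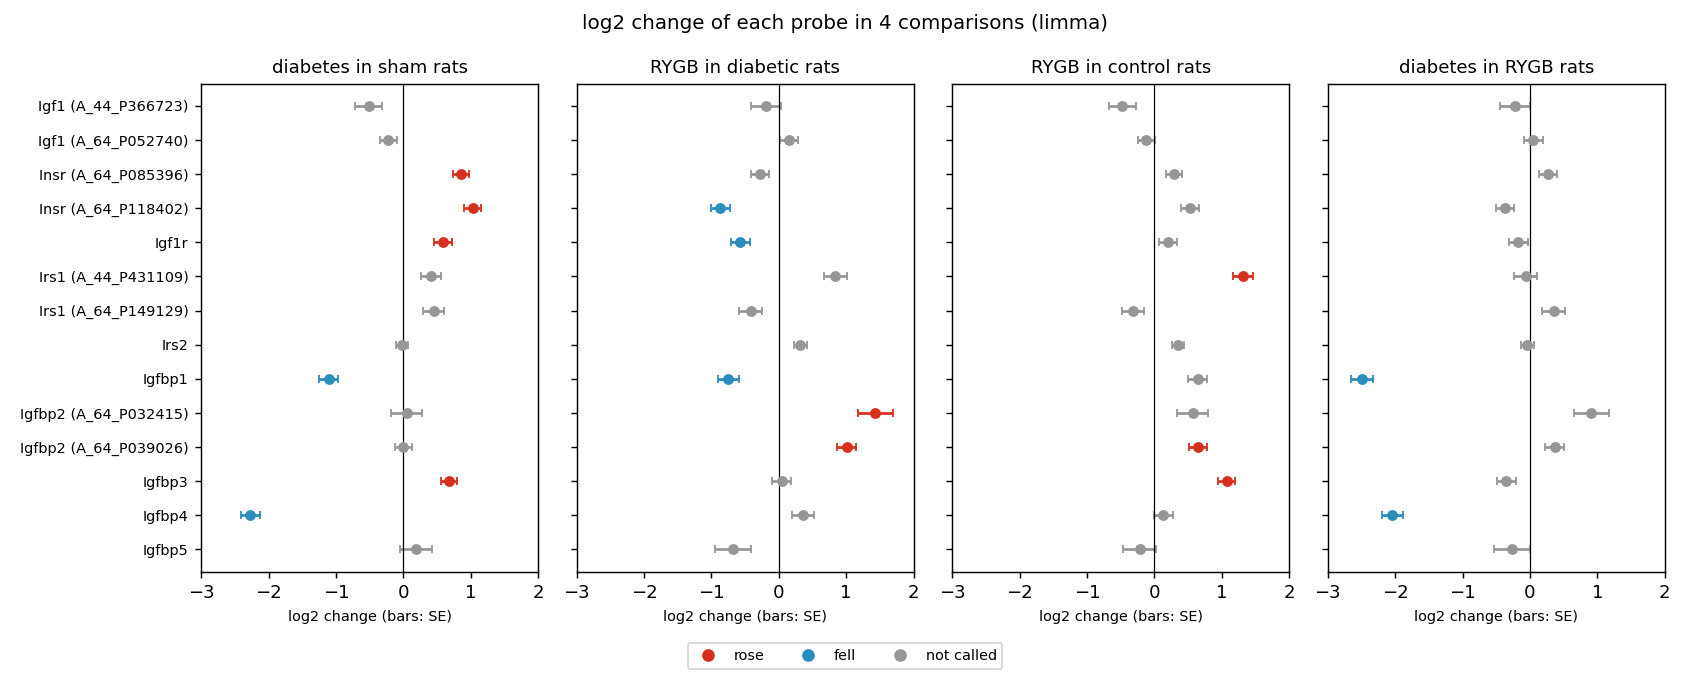
Log2 change of each probe, with its SE, in the 4 comparisons, as diabetic over control rats or RYGB over sham operation. Igfbp4 and Igfbp1 lie far left of 0 in both diabetes panels, at -2.27 and -1.11 in sham rats and -2.04 and -2.49 in RYGB rats, and both Igfbp2 probes lie right of 0 in the RYGB panels.

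The effect of RYGB differed between diabetic and control rats for Igfbp1, Igf1r, Igfbp3 and 1 of the 2 Insr probes. The interaction is the change with RYGB in diabetic rats minus that in control rats. It was negative and called for 4 of the 14 probes and positive for none, while 6.52% of all probes were called positive and 9.64% negative. At an unadjusted p under 0.05 in limma, 6 of the 14 and 10477 of all 28489 probes passed. The members' median was -0.28 and that of all probes 0.14.

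For Insr on A_64_P118402 the change with RYGB was -0.87 in diabetic rats and 0.53 in control rats, an interaction of -1.40 (SE 0.19, adjusted p 0.0039) that held without each sample in turn. The other Insr probe, A_64_P085396, was at -0.58 (adjusted p 0.052) and not called. For Igfbp1 the changes were -0.75 in diabetic rats and 0.64 in control rats, an interaction of -1.39 (SE 0.21, adjusted p 0.0061), lost without DM+Sham 2 and 3 (-1.30) or Control+RYGB 2 and 3 (-1.33). Igfbp1 was lowest in rats with both diabetes and RYGB and highest in rats with RYGB alone.

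For Igfbp3 the changes were 0.04 in diabetic rats and 1.07 in control rats, an interaction of -1.03 (SE 0.18, adjusted p 0.01). It was lost without DM+Sham 2 and 3 (-0.95), Control+RYGB 1 (-1.05) or Control+RYGB 2 and 3 (-1.01). For Igf1r they were -0.57 in diabetic rats and 0.20 in control rats, an interaction of -0.76 (SE 0.19, adjusted p 0.028). That call was lost without Control+Sham 1 or 2, either DM+Sham sample or either Control+RYGB sample (-0.84 to -0.69). Without DM+RYGB 2 the 4 interactions were -1.53 (Insr), -1.18 (Igfbp1), -0.94 (Igfbp3) and -0.66 (Igf1r), all called. With normexp the Insr interaction was -0.29 and that of Igf1r 0.12, and neither was called. The Igf1r interaction was also not called with the local background subtracted and an offset added. Igfbp4 had no called interaction (0.23, adjusted p 0.47). Markers moved with the interaction as well, positive for 4 of 5 of urothelium, 3 of 6 of pancreas and 2 of 5 of podocytes, and negative for 3 of 6 of proximal tubule, and their part in these results was not tested.

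**Figure D4:**
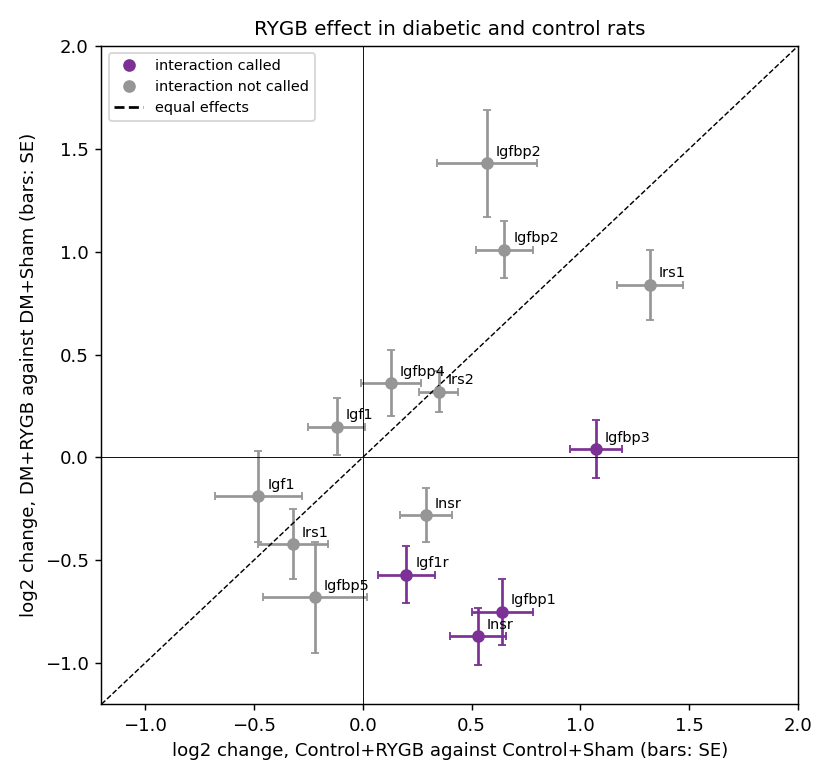
Log2 change with RYGB in diabetic rats (vertical axis) against that in control rats (horizontal axis) for each probe, with SE bars and the line of equal effects. The called interactions, 1 Insr probe, Igfbp1, Igf1r and Igfbp3, lie below the line, and the Igfbp2 probes lie above it without a called interaction.

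Other genes of the pathway were taken from 8 lists of 108 genes, 93 of which had a probe tested. The counts of each list stand beside the shares of all probes called, which were 6.29% higher and 6.74% lower with diabetes in sham rats. In diabetic sham rats the genes known to rise with insulin were lower where they were called, as 3 of 9 probes fell and none rose (median -0.16, all probes 0.04). Insig1, which restrains sterol synthesis, fell by 1.59 (SE 0.12), Fasn, the fatty acid synthase, fell by 1.5 (SE 0.12) and Scd, a fatty acid desaturase, fell by 1.73 (SE 0.23). Insig1 was at 0.74, 0.78 and 0.79 in DM+Sham and 2.42, 2.30 and 2.34 in Control+Sham.

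Of 19 probes for FOXO factors and genes known to fall with insulin 3 rose and 1 fell in diabetic sham rats (median 0.08). Klf15, a regulator of gluconeogenesis, rose by 0.91, Ppargc1a, a coactivator of FOXO1, rose by 0.62 and 1 Foxo4 probe rose by 0.88 (the other was at 0.24). Bcl6, a transcriptional repressor, fell by 2.76 (SE 0.09, adjusted p 3.2e-05), at 0.18, 0.24 and 0.27 in DM+Sham and 3.03, 2.98 and 2.92 in Control+Sham. Bcl6 was the gene of these lists with the smallest p in that comparison.

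Among 9 probes for ligands and secreted regulators 3 rose and 1 fell (median -0.03). The stanniocalcins Stc1 and Stc2, which inhibit PAPP-A proteases, rose by 1.09 and 2.29, and Ide, the insulin-degrading enzyme, rose by 0.60. Igfbp6, a binding protein that prefers IGF2, fell by 0.84. Of 19 adaptor and brake probes 3 rose and 4 fell, with Sh2b1 at 0.84 and 1 Grb2 probe at 0.63 among the rises (the other Grb2 probe was at -0.49, adjusted p 0.037, and not called) and Sh2b2 at -0.73 and the phosphatase Ptpn2 at -0.88 among the falls. The kinases were mostly not called, with 1 of 32 PI3K, AKT and mTOR probes higher (1 of 6 Pik3ca probes at 0.54, the others at -0.11 to 0.28) and 2 of 10 RAS and MAP kinase probes lower (among them Hras at -0.40). Of 9 growth hormone probes 1 of the 2 for Cish rose by 1.1 (the other was at 0.85) and Stat5a fell by 0.55. Of 7 probes for other receptors none was called by limma, and 0 had an unadjusted p under 0.05, beside 9680 of all 28489 probes.

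Of the 19 pathway probes named for diabetes in sham rats 7 kept their calls without each sample in turn, namely Stc1, Igfbp6, Sh2b1, Bcl6, Insig1, Fasn and Scd. The other 12 lost them without DM+Sham 2 and 3, and each also without another sample. Without DM+Sham 2 and 3 the higher genes were at 2.18 (Stc2), 0.53 (Ide), 0.60 (Grb2), 0.51 (Pik3ca), 0.76 (Klf15), 0.62 (Ppargc1a), 0.91 (Foxo4) and 1.19 (Cish). The lower ones were at -0.69 (Sh2b2), -0.65 (Ptpn2), -0.35 (Hras) and -0.64 (Stat5a). All 38 same-day differences of these probes had the direction of the change. The same arrays gave the calls by which the probes were chosen, so this is no separate support.

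After RYGB in diabetic rats G6pc1, the phosphatase that releases glucose in the proximal tubule, fell by 1.96 (SE 0.18, adjusted p 0.0007) and 2.25 (SE 0.23, adjusted p 0.00087) on its probes. On A_44_P330342 G6pc1 was at 3.21 and 2.80 in DM+RYGB and 5.02, 4.90 and 4.91 in DM+Sham. Ccng2, a cyclin that FOXO factors induce, fell by 0.91 on 1 probe (the other was at -0.21), Sesn2, which restrains the mTORC1 kinase, fell by 1.09 and Klf15 fell by 0.92. In all, 5 of 19 probes of the list of genes known to fall with insulin fell and 2 rose (median -0.10, all probes 0.33), while of all probes 15.7% fell and 10.2% rose. The counts of this and the other lists in this comparison are to be read against those shares. Of 9 probes for genes known to rise with insulin 2 fell, Fasn at -0.61 and Acaca, the carboxylase of fatty acid synthesis, at -0.29, and none rose. The proximal tubule markers, of which 3 of 6 fell here, moved with G6pc1, and their part in its fall was not tested.

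Among the secreted regulators in that comparison 2 of 9 probes rose and 2 fell. Igfbp7 rose by 2.52 (SE 0.58) and Igfbp6 by 1.19 (SE 0.10), whereas Igfals, the acid-labile subunit of the circulating IGF complex, fell by 1.59 and Stc1 fell by 0.64. Of 7 receptor probes 3 fell, Igf2r, the receptor that clears IGF2, at -0.98 and the growth hormone receptor Ghr at -0.70 and -0.94 on 2 of its 3 probes (the third was at -0.11, adjusted p 0.58). Ghr also stands in the growth hormone list, where these were the 2 of 9 probes that fell.

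Of 32 PI3K, AKT and mTOR probes 6 fell and none rose in that comparison (median -0.05, all probes 0.33), a share of falls near the 15.7% of all probes. Among them Mlst8, a subunit of the mTOR complexes, fell by 0.73, Akt1s1, which restrains mTORC1, fell by 0.56 and Pik3r2, a regulatory subunit of PI3K, fell by 0.44. Of 19 adaptor and brake probes 3 rose and 3 fell. Ptpn2 rose by 1.64 and Grb14, a receptor inhibitor, by 2.19 and 2.38, while Enpp1 fell by 1.13 and 1 Shc1 probe fell by 0.54 (the other was at -0.11). Of 10 RAS and MAP kinase probes Nras fell by 0.87.

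Of the 23 pathway probes named here 11 kept their calls without each sample in turn. Without DM+Sham 2 and 3 calls were lost for Shc1 (-0.45), Mlst8 (-0.66), Akt1s1 (-0.47), Pik3r2 (-0.38), Klf15 (-0.77), Fasn (-0.58), Acaca (-0.26), Igfbp7 (1.87), both Ghr probes (-0.66 and -0.87) and 1 Grb14 probe (2.04). Acaca and the second Ghr probe also lost theirs without most other samples, among them DM+RYGB 1 for Ghr (-0.50) and DM+RYGB 2 for Acaca (-0.26), and Igfbp7 without DM+RYGB 1 (1.96). The call of Igfbp6 was lost without DM+Sham 1 (1.13). All 23 same-day differences had the direction of the change, which is no separate support here either, since the same arrays gave the calls. All these calls but that of Acaca held without DM+RYGB 2, the array with muscle transcripts. G6pc1 was then at -1.75 and -1.88, Igfals at -1.19, Igfbp7 at 3.07, Ptpn2 at 1.75, Enpp1 at -1.21, and Grb14 at 1.49 and 1.63.

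**Figure D5:**
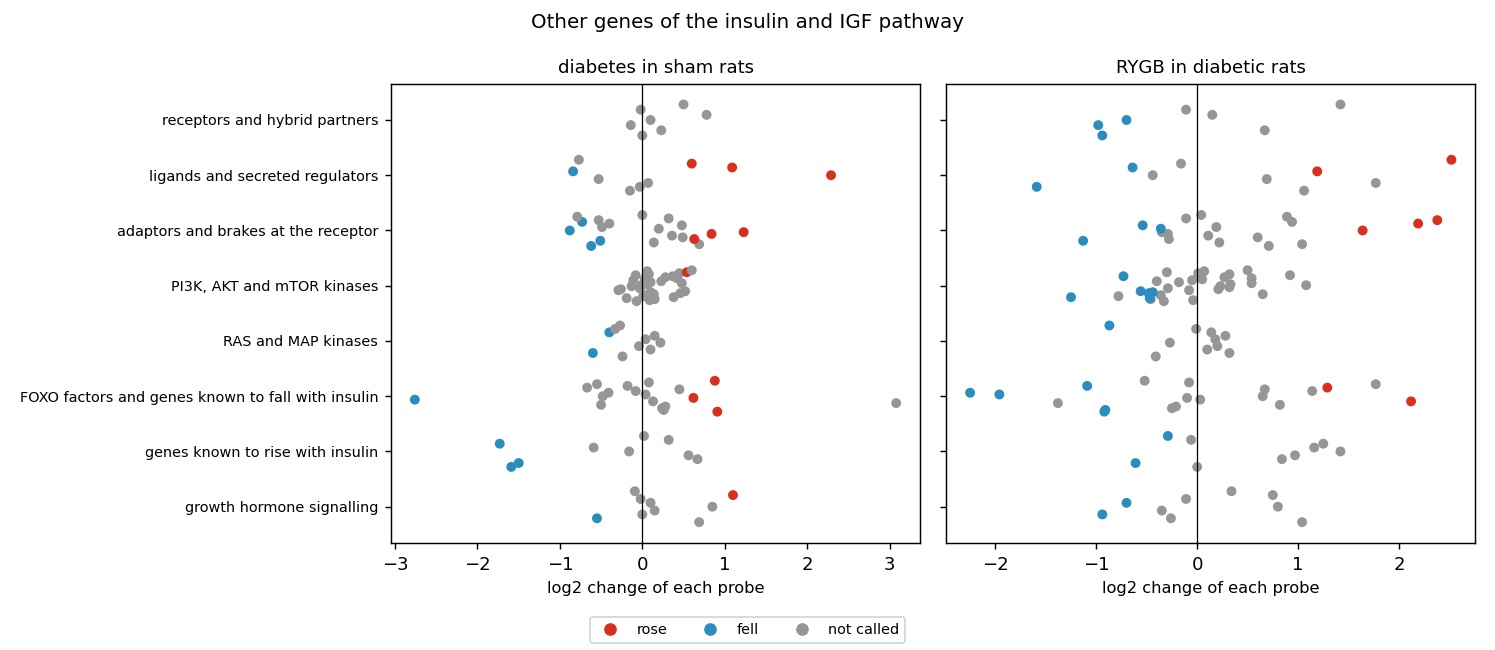
Log2 change of every tested probe of the 8 pathway lists (rows) for diabetes in sham rats (left) and RYGB in diabetic rats (right), coloured by call. Bcl6 at -2.76 and the G6pc1 probes at -1.96 and -2.25 are the falls farthest left, and most kinase probes lie near 0.

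In the remaining comparisons at most 1 gene per list is named, that with the smallest p. With RYGB in control rats 4 of 19 probes of FOXO factors and genes known to fall with insulin rose and 1 fell, and 2 of 32 kinase probes of the PI3K, AKT and mTOR list rose and 4 fell, where 6.74% of all probes rose and 8.29% fell. Bcl6 fell by 1.51, Fasn fell by 0.91 and Nras fell by 0.50, while 2 of 6 Pik3ca probes rose by 1.34 and 1.15 (the others were at -0.23 to 0.28), Cish by 1.68 and 1.1, Ptpn2 by 0.80 and Stc1 by 0.63, and of these calls that of Bcl6 held without each sample in turn. The other calls were lost without Control+RYGB 1, at -0.86 (Fasn), -0.50 (Nras), 1.20 and 1.01 (Pik3ca), 1.60 and 1.07 (Cish), 0.76 (Ptpn2) and 0.70 (Stc1). With diabetes in RYGB rats the called probes of all 8 lists fell, among them 6 of 19 known to fall with insulin, 4 of 9 known to rise with it and 3 of 10 RAS and MAP kinase probes, where 10.9% of all probes fell. G6pc1 fell by 2.89 and 3.48, Insig1 fell by 1.88, Igf2r fell by 1.53, Igfals fell by 2.04 and Enpp1 fell by 1.31, all held without each sample in turn. They were at -2.69 and -3.12 (G6pc1), -2.04 (Insig1), -1.64 (Igf2r), -1.64 (Igfals) and -1.39 (Enpp1) without DM+RYGB 2. On 1 probe each Sos1 fell by 0.65 (the other probe was at 0.30) and Ghr fell by 0.58 (the others were at -0.75 and -0.14), each lost without Control+RYGB 1 (-0.67 for Sos1 and -0.62 for Ghr). The interaction was called negative for 7 and positive for 1 of the 19 probes of genes known to fall with insulin, and negative for 4 and positive for 1 of 9 secreted regulators, where 9.64% of all probes were called negative and 6.52% positive. It was -2.94 and -3.07 for G6pc1, -1.27 for Stc1, -1.39 for Igf2r and 1.47 for Dok1, all called without DM+RYGB 2 too (-2.73 and -2.70 for G6pc1, -1.35 for Stc1, -1.50 for Igf2r and 1.70 for Dok1). The call of Dok1 was lost without Control+RYGB 2 and 3 (1.41). That of Igf2r was lost in 6 of 9 such fits, namely without Control+Sham 1 or 2, DM+Sham 2 and 3, either Control+RYGB sample (-1.36 without Control+RYGB 2 and 3) or DM+RYGB 1 (-1.28).

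As a description, the named genes whose probes followed a member most closely over the 9 samples were listed by Pearson correlation, over samples that share 4 groups. Pex13, Rin2 and Mab21l3 followed Igfbp1 at 0.997, 0.996 and 0.996, and Pxmp4, Ly49s7 and Coq10b followed Igfbp4 at 0.996, 0.995 and 0.993. The adaptor Grb2 was among the 3 closest to Insr, at 0.986, after C1qtnf4 and Gipc1 at 0.989. The receptor kinase gene Erbb2 was among those closest to Igf1r, at 0.986, beside Parg at 0.988 and Ptprj at 0.98. Nup54, Ptprg and Depdc1b followed Igfbp3 at 0.984, 0.984 and 0.979, and Slc17a6, Or1e1c and Trim67 followed Igfbp2 at 0.983, 0.982 and 0.981.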

How the data were processed

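Total RNA of renal cortex was labelled with Cy3 and hybridised to 11 1-colour Agilent rat arrays, which the labels list as 11 samples. The authors' scanner files, per the file headers, were made with Feature Extraction 11.0.1.1, whose processed signal is an intensity with background subtracted and spatial trends removed, and the array was designed on rn4. The deposited table of log2 values, with no stated normalization, served as an alternative: its columns share a median of 7.065 and correlate with the scanner values at 0.9887 to 0.9969. Its direction is that of the scanner values.

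Here log2 of the intensity minus each array's 75th percentile was averaged over repeated spots, control spots (1377 of 44254) were left out, and the 28489 probes that were well above background on 2 or more arrays entered a limma fit (version 3.58.1, R 4.3.3), all 4 groups in 1 model, with Benjamini-Hochberg adjustment over all probes. The means over repeated spots of DM+Sham 2 and 3 differed by 0.0098 (log2 variation), less than the 0.0523 between single spots. Those of Control+RYGB 2 and 3 differed by 0.0231 beside 0.0504, whereas other pairs within a group differed by 0.0857 to 0.3744. Means of spots were thus set against single spots, which are unlike measures. DM+Sham 2 and 3 were averaged and counted as 1 sample, as were Control+RYGB 2 and 3. Whether either pair is a repeat of 1 RNA is not given in the labels. The number of arrays limits the precision. Gene names were assigned here through RefSeq from the accessions in the array's files. This gave 18005 probes 1 symbol and 12362 none, and loci are from GRCr8. The probes' positions within their transcripts were not used here.

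The members and the pathway and marker lists were chosen with earlier results of these data known. By rule, all members were described, and from each pathway list the called genes with the smallest p, up to 4 for diabetes in sham rats and RYGB in diabetic rats and 1 elsewhere. Some of the genes so named are not reported here, but are counted in their lists. The 3 genes most like a member were those with the highest Pearson correlation. The model was checked on simulated data for diabetes in sham rats. It recovered 42% of 100 probes changed by 1 on the log2 scale, and 71% of 100 changed by 2. A result that was not called therefore does not show the absence of a change. Alternatives were each scaling alone, other background corrections, probe filters and sample sets, the deposited values, scan day, slide and replicate number as terms, and array weights.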

Additional observations from a re-analysis of the deposited data

Results flagged for a closer look

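The effect of RYGB differed between diabetic and control rats, by limma's interaction term, for 4 of 14 member probes and 5 named pathway probes. Of all 28489 probes tested 9.64% were called negative and 6.52% positive. Values are the change in diabetic rats minus that in control rats on the log2 scale. Among the members they were -1.40 for Insr on A_64_P118402, -1.39 for Igfbp1, -1.03 for Igfbp3 and -0.76 for Igf1r. Among the pathway genes they were -2.94 and -3.07 for G6pc1, -1.39 for Igf2r, -1.27 for Stc1 and 1.47 for Dok1. Only the calls of Insr, G6pc1 and Stc1 held in each of 9 fits without 1 sample. Igf1r and Igf2r lost theirs in 6 of those fits, Igfbp3 in 3, Igfbp1 in 2 and Dok1 in 1. With normexp the value of Igf1r was 0.12. No scan day held all 4 groups, so no same-day value of an interaction can be given.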

How the results depend on the processing

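Of 20 called member results 3 were kept in all 24 alternative settings (Igfbp4 with diabetes in sham rats, and Igfbp4 and Igfbp1 with diabetes in RYGB rats), and 3 reversed. Of 50 results not called 26 were called in no setting. With normexp background correction, whose fit failed on DM+RYGB 1 (fitted background mean -409.24, other arrays -7.7 to 9.46), RYGB in diabetic rats gave 0.06 for Insr on A_64_P118402, 0.15 for Igf1r, 0.20 for Igfals, 0.38 for Akt1s1, 0.14 for Pik3r2 and 1.24 for Acaca, and the interaction gave 0.12 for Igf1r. Acaca also reversed with the background subtracted and an offset (0.30), and the cause was not tested. Against 6 member probes called for diabetes in sham rats, 5 for RYGB in diabetic rats, 3 for RYGB in control rats, 2 for diabetes in RYGB rats and 4 for the interaction, the counts that moved by over 1.5 times were as follows. Normexp gave 1 for diabetes in sham rats, 1 for RYGB in diabetic rats, 0 for RYGB in control rats and 2 for the interaction. For RYGB in control rats 5 members, and 4381 of all 28489 probes, then had an unadjusted p under 0.05 in limma. RYGB in diabetic rats gave 9 with the median or quantiles alone and with the deposited values. It gave 3 with scan day as a block or array weights, and 1 with only the groups compared. With 1 probe per gene it gave 3 of 10 probes, as the second probes were left out. RYGB in control rats gave 6 with the 75th percentile alone, 5 with the deposited values, 7 with slide or array weights and 0 with scan day (3 unadjusted, beside 5908 of all probes). Diabetes in RYGB rats gave 4 with the median alone or slide and 7 with quantiles alone or the deposited values. These follow in part from fewer scalings demanded or fewer probes, and otherwise the cause was not tested. With 11 separate arrays the counts were 8, 6 and 4 for these last 3 comparisons, and 8, 6 and 4 with the replicate block as well. Same-numbered pairs correlated, as deviations from their group means, at -0.379 to 0.45 with 5 of 15 over 0.1. Such deviations are tied within a small group, as in 0.281 and -0.281 for Control+RYGB 1 with DM+RYGB 1 and 2. These correlations thus cannot decide whether replicate numbers pair the samples. Without 1 sample the counts were 2 to 6, 2 to 6, 0 (without Control+RYGB 1, 6 unadjusted) to 4, 2 to 4 and 1 to 6 in the order above. Over all probes the alternatives gave 136 to 8370 calls beside 3712 for diabetes in sham rats, 2005 to 13733 beside 7382 for RYGB in diabetic rats, 132 to 12161 beside 4283 for RYGB in control rats, 1429 to 8628 beside 5272 for diabetes in RYGB rats and 863 to 8481 beside 4605 for the interaction. The share of calls that were higher was 56.3%, 43.2% and 54.5% with the 75th percentile, median and quantiles for diabetes in sham rats, 62.8%, 42.2% and 39.6% for RYGB in control rats, 58.4%, 30.1% and 45.4% for diabetes in RYGB rats and 53.2%, 35.5% and 42.5% for the interaction. The median change of all probes moved with the median and quantiles from 0.15 to -0.03 and -0.05 for RYGB in control rats, from 0.19 to -0.09 and 0.01 for diabetes in RYGB rats, and from 0.14 to -0.06 and -0.04 for the interaction. Signal over background limits the Irs1 probe A_44_P431109, read at 14.2 to 104 units.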
